A study of Homo sapiens with 6 samples.

Results

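HOX genes were read in MCF10A cells with and without C/EBPbeta-2. They encode homeodomain transcription factors and lie in clusters named HOXA to HOXD, on chromosomes 7, 17, 12 and 2. Within a cluster the paralog number follows the order of the genes along the chromosome, and low and high numbers act in anterior and posterior parts of the embryo, respectively. Adult epithelia, the mammary gland among them, keep part of this code, and the proteins bind DNA together with TALE homeodomain cofactors of the PBX and MEIS families. The list held 38 genes, and a gene was measured where the probe annotation gave it a probe set with no other gene symbol. This left 28 genes with 44 probe sets, out of 19775 genes and 54613 probe sets in all: 1 of 10 HOXA genes, 10 of 10 HOXB genes, 9 of 9 HOXC genes and 8 of 9 HOXD genes. HOXA3, HOXA4, HOXA5, HOXA6, HOXA7, HOXA9, HOXA10, HOXA11, HOXA13 and HOXD3 were not analysed here, so HOXA2 alone stands for its cluster.

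MCF10A is an immortal human breast epithelial line that forms no tumours. The series holds 3 arrays labelled MCF10A cells with C/EBPbeta-2, one of several proteins made from the transcription factor gene CEBPB, and 3 labelled MCF10A cells, called control here, and both groups were grown in the same medium with horse serum, insulin, hydrocortisone, epidermal growth factor and cholera toxin. Arrays of a group are labelled biological replicates, with no word on separate cultures, so p-values measure only the spread between these samples, which may be technical. The labels do not say by what means the cells came to hold C/EBPbeta-2, or whether 1 clone or a pool was used.

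Array medians were 4.46 to 4.56 (log2 intensity). The basal epithelial keratin KRT5 read 12.38 to 12.93 and KRT18 of simple epithelia 11.27 to 11.87, while CDH5 of endothelium (2.64 to 2.78) and the leukocyte marker PTPRC (3.11 to 3.63) lay below the array medians. A mean above the array medians was seen for 3 of 3 measured basal markers and 5 of 6 luminal markers. The luminal keratin KRT19 was the exception (mean 3.98), and KRT17, TP63 and LAMA3 of the basal list were not measured. Such a mean was also seen for 2 of 5 endothelial markers (PECAM1 and TEK), 1 of 4 leukocyte markers (CD14) and 3 of 8 fibroblast markers (COL1A1, DCN and THY1). Over all markers of a list the mean by array was 4.15 to 4.17 with C/EBPbeta-2 and 4.21 to 4.47 in control cells for endothelium, 4.70 to 5.04 and 4.49 to 4.58 for leukocytes, and 4.69 to 5.15 and 4.94 to 5.32 for fibroblasts. The basal keratin KRT14 was lower with C/EBPbeta-2 (log2 difference -3.00, limma adjusted p = 0.0300), and the matrix gene DCN, among the fibroblast markers, differed by -2.61 (limma adjusted p = 0.417). The groups did not overlap for these 2 genes, nor for CD14 (0.92, limma adjusted p = 0.266). Nor did they overlap for the luminal gene MUC1 (-1.46, limma adjusted p = 0.319) and the endothelial gene KDR (-0.68, limma adjusted p = 0.659). That was 1 marker of each list, out of 3 basal, 6 luminal, 8 fibroblast, 5 endothelial and 4 leukocyte markers, where 8.63% of all genes had no overlap. The other markers overlapped, KRT5 (-0.13) and ITGB4 (-0.51) of the basal list among them. What part such markers had in the HOX values was not tested. CEBPB differed by -0.62 (SE 0.30, limma adjusted p = 1.00), so it gave no check of the labels. Poly-A spike-in RNA was low on a pair of arrays, C/EBPbeta-2 replicate 2 (3.65) and control replicate 1 (3.81), while the other 4 read at least 6.33. This pair also had the largest log2 difference between 3′ and 5′ control probe sets of ACTB (1.32 and 1.48, against -0.04 to 0.64). For GAPDH that difference was 0.22 and 0.12, against 0.21 to 0.32, and its part in the HOX values was not tested. The probe sets of 18S ribosomal RNA were brightest on C/EBPbeta-2 replicate 1 (12.19) and control replicate 2 (12.17). Intensities of different probe sets do not rank genes, since probes differ in how strongly they bind, and in a cell population fewer expressing cells and less RNA per cell cannot be told apart.

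Promoter windows of 11 of the 28 measured genes were in the RefSeq table used here (GRCh38.p14), and the 250 bases before the start site were searched on both strands. The letters searched were TTGCNNAA (or TTNNGCAA), a form of the site that C/EBP proteins bind, and TGATNNAT (or ATNNATCA), a form of the site that HOX and PBX proteins bind together. The first was in 9.05% of all 34788 such windows and in 1 of the 10 different HOX windows, and the second in 6.49% of all windows and in 3 of the 10, those of HOXA2, HOXB1 and HOXD11. A match is a description of letters, and binding to it was not tested here. HOX windows held a median of 18.5 CG dinucleotides, against 11 in all windows. The window of HOXC4 is shown because it holds the C/EBP letters (TTGCAGAA, 131 bases before the start) and because HOXC5 has the same start in RefSeq. The gene start of HOXC6 is given at this same position, but HOXC6 was not among the 11 genes with windows. The window of HOXB1 is shown because it holds the HOX-PBX letters (TGATGGAT, 125 bases before the start). That of HOXD8 is shown because it is the only one here of a gene whose groups did not overlap. Capitals mark the matches, and each is printed 5′ to 3′ on the gene's own strand.
HOXC4 and HOXC5, chr12:54016638-54016887, plus strand: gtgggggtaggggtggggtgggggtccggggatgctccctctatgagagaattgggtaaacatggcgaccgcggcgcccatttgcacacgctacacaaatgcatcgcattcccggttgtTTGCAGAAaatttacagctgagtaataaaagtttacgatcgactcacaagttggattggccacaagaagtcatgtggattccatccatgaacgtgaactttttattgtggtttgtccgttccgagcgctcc
HOXB1, chr17:48531012-48531261, minus strand: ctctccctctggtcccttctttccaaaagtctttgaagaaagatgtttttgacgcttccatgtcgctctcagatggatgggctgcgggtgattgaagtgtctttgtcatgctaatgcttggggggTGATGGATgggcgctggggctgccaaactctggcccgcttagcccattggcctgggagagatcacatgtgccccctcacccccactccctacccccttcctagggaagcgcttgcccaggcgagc
HOXD8, chr2:176129455-176129704, plus strand: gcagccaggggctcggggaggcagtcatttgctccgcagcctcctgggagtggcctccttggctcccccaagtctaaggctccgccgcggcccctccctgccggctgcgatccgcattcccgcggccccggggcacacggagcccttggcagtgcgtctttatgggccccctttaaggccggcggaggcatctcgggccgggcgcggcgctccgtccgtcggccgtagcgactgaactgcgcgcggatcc

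No HOX gene passed the test between the groups. In limma's fit over all genes, with C/EBPbeta-2 minus control and Benjamini-Hochberg adjustment, 0 of 28 measured HOX genes had an adjusted p under 0.05, where 0.273% of all 19775 genes had one (18 higher, or 0.091%, and 36 lower, or 0.182%). At an unadjusted p under 0.05 there was 1 HOX gene, HOXC13, which is 3.57% of the 28, against 5.17% of all genes. The 3 arrays of a group lay fully above those of the other for HOXC13, HOXC9 and HOXD8, each higher with C/EBPbeta-2 and 10.7% of the 28, and 8.63% of all genes had groups that did not overlap (4.62% with the C/EBPbeta-2 arrays higher). The median log2 difference over the 28 was -0.02, against 0.01 over all genes, with 12 higher and 16 lower, and leaving out 1 array moved it from -0.10 (without control replicate 3) to 0.11 (without control replicate 2). Differences of 0.5 or more in size were seen for 3 HOX genes (10.7%) and 9.73% of all genes, and of 1 or more for 0 HOX genes and 2.57% of all genes. These shares are near those of all genes.

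**Figure D1:**
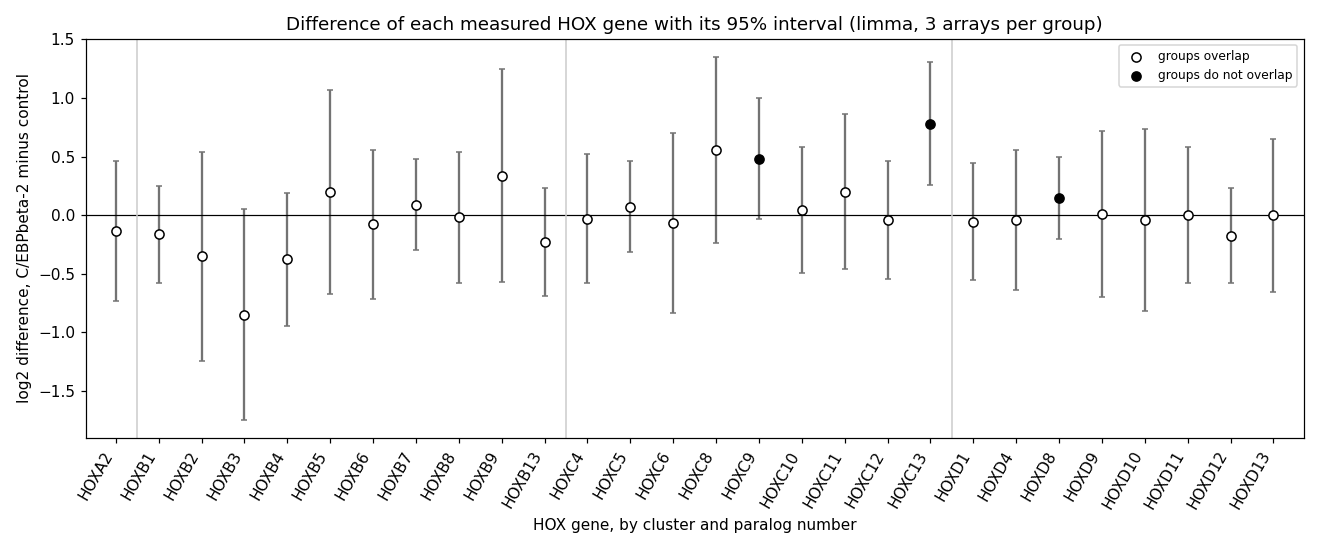
Log2 difference (vertical axis, C/EBPbeta-2 minus control) of the 28 measured HOX genes, in order of cluster and paralog number (horizontal axis), with vertical grey lines between clusters. Points are limma estimates with their 95% intervals, and filled points are genes whose groups did not overlap. HOXC13 (0.78) is the only gene whose interval leaves out 0, and HOXB3 (-0.85) has the lowest estimate.

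What the arrays could show was limited by their number. The SE of the log2 difference was 0.15 to 0.38, and the 95% interval held 0 for 27 of the 28 genes. For 21 of them the interval lay within a change of 1 on the log2 scale in either direction. The intervals of the other 7, HOXB2, HOXB3, HOXB5, HOXB9, HOXC8, HOXC9 and HOXC13, went past that size, so a 2-fold difference was not left out for them.

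Levels gave the first division among the genes. Of the 28, 17 had a mean above the highest array median: HOXA2, HOXB1 to HOXB5, HOXB9 and HOXB13, HOXC4, HOXC5, HOXC6, HOXC8, HOXC9, HOXC11 and HOXC13, and HOXD9 and HOXD13, where 63.5% of all genes had such a mean. By cluster these were 1 of 1 in HOXA, 7 of 10 in HOXB, 7 of 9 in HOXC and 2 of 8 in HOXD. HOXB6, HOXB7, HOXB8, HOXC10, HOXC12, HOXD1, HOXD4, HOXD8, HOXD10, HOXD11 and HOXD12 had means of 2.91 to 4.50. No detection calls were used here, so a low value has no stated background. HOXB8, HOXC10, HOXC12, HOXD4, HOXD8, HOXD11 and HOXD12 were below the array median on all 6 arrays.

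**Figure D2:**
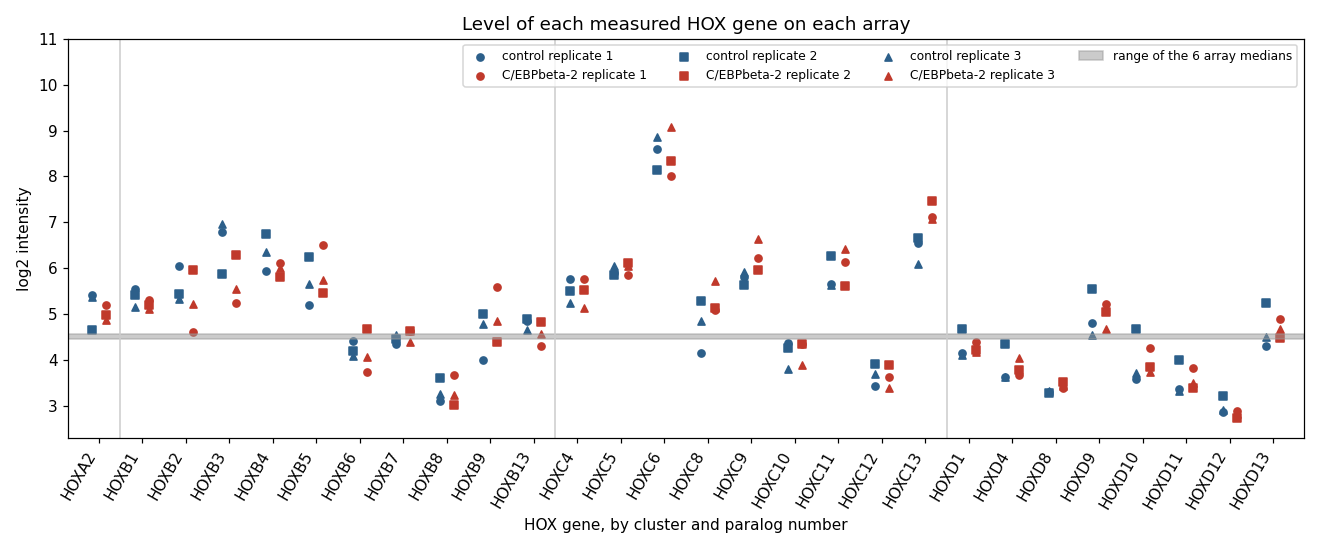
Log2 intensity (vertical axis) of the 28 measured HOX genes on each of the 6 arrays, in order of cluster and paralog number (horizontal axis); colour gives the group and symbol the replicate. The grey band is the range of the array medians, 4.46 to 4.56, and 6 of the 8 HOXD genes have means below its upper edge.

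In the HOXC cluster HOXC13, HOXC8, HOXC9 and HOXC11 gave the highest estimates, but HOXC10 (0.05) and HOXC12 (-0.04) lay below HOXC5 (0.07). The median log2 difference was 0.34 over the 6 genes HOXC8 to HOXC13 and -0.03 over the 3 genes HOXC4 to HOXC6, and 0.07 over all 9, with 6 higher and 3 lower. These divisions by paralog number, here and in the HOXB cluster, were chosen after the values were seen and have no test. HOXC13, a regulator of hair and nail keratin genes, read 7.12, 7.46 and 7.06 (log2 intensity, replicates 1 to 3) with C/EBPbeta-2 and 6.54, 6.67 and 6.08 in control cells, at probe set 219832_s_at. Every C/EBPbeta-2 array was above every control array, by at least the step from 6.67 to 7.06. The log2 difference was 0.78 (SE 0.22, 95% interval 0.26 to 1.31, 1.72-fold), and did not pass the test (limma adjusted p = 0.489). It was 0.91 on the pair of arrays with low spike-in RNA and 0.72 on the other 4, and leaving out 1 array gave 0.61 to 0.90. The gene had no probe set other than this one, whose name ending marks probes that can match more than 1 transcript of a gene or family.

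HOXC9 and HOXC8 had the next estimates. HOXC9 read 6.22, 5.97 and 6.63 with C/EBPbeta-2 and 5.81, 5.63 and 5.93 in control cells. The groups did not overlap, but the lowest C/EBPbeta-2 value and the highest control value were only 0.038 apart. Its log2 difference of 0.48 (SE 0.22, 1.40-fold) did not pass the test (limma adjusted p = 1.00), and it was 0.15 on the pair of arrays with low spike-in RNA and 0.65 on the other 4. It fell to 0.30 without C/EBPbeta-2 replicate 3 and rose to 0.64 without C/EBPbeta-2 replicate 2.

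HOXC8 read 5.09, 5.14 and 5.72 with C/EBPbeta-2 and 4.14, 5.30 and 4.85 in control cells. Here the groups overlapped, and control replicate 1 was the lowest array. The log2 difference was 0.56 (SE 0.33, limma adjusted p = 1.00), and 0.25 without that array. It was 0.36 without C/EBPbeta-2 replicate 3 and 0.83 without control replicate 2.

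The other HOXC genes differed less. HOXC6, whose probe set was the brightest of the cluster, read 8.01, 8.34 and 9.08 with C/EBPbeta-2 and 8.59, 8.15 and 8.86 in control cells. These groups spanned nearly the same range, and the log2 difference was -0.06 (95% interval -0.83 to 0.71). HOXC4 and HOXC5, which share the promoter window shown above, differed by -0.03 (interval -0.58 to 0.52) and 0.07 (interval -0.31 to 0.46). HOXC11 differed by 0.20, and HOXC10 (0.05) and HOXC12 (-0.04) were dim genes with estimates near 0. Between them these 6 genes ranged from -0.06 to 0.20.

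**Figure D3:**
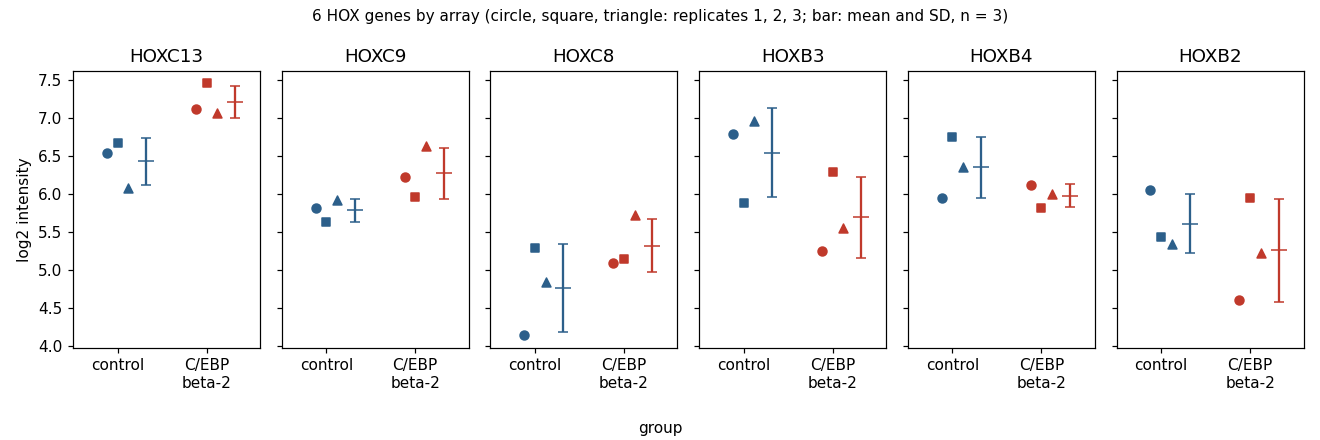
Log2 intensity (vertical axis) of HOXC13, HOXC9, HOXC8, HOXB3, HOXB4 and HOXB2 by group (horizontal axis); each point is 1 array and bars are the mean and SD of 3 arrays. HOXC13 and HOXC9 have no overlap between the groups, and the other 4 genes overlap.

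In the HOXB cluster the genes with low paralog numbers gave negative estimates at the probe set read for each, the brightest of the gene. HOXB1, HOXB2, HOXB3 and HOXB4 had a median log2 difference of -0.36, with 4 of 4 lower, and HOXB5 to HOXB9 a median of 0.09, with 3 of 5 higher, but HOXB13, which has the highest number, was also lower (-0.23). Over all 10 genes the median was -0.12, with 3 higher and 7 lower, and the groups overlapped for each of them. HOXB3, a gene of hindbrain and neck patterning, read 5.25, 6.29 and 5.56 with C/EBPbeta-2 and 6.80, 5.88 and 6.96 in control cells, at probe set 228904_at. C/EBPbeta-2 replicate 2 lay above control replicate 2, so the groups overlapped. The log2 difference was -0.85 (SE 0.38, 95% interval -1.75 to 0.05), the largest in size of the 28, and did not pass the test (limma adjusted p = 1.00). It was -0.51 on the pair of arrays with low spike-in RNA and -1.02 on the other 4, and leaving out 1 array gave -1.18 to -0.62. The other probe set of the gene, 208414_s_at, differed by -0.10 (SE 0.17), so the probe sets of HOXB3 disagreed in size.

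HOXB4, known for expanding blood stem cells, read 6.11, 5.81 and 6.003 with C/EBPbeta-2 and 5.95, 6.75 and 6.35 in control cells. Only control replicate 1 lay within the range of the C/EBPbeta-2 arrays. Its log2 difference was -0.37 (SE 0.24, limma adjusted p = 1.00), and -0.17 without control replicate 2. Without control replicate 1 it was -0.58.

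HOXB2, which acts in the hindbrain, read 4.60, 5.95 and 5.23 with C/EBPbeta-2 and 6.06, 5.44 and 5.34 in control cells. The C/EBPbeta-2 arrays spread the widest of any HOX gene (SD 0.68), and the difference of -0.35 was -0.02 without C/EBPbeta-2 replicate 1, -0.13 without control replicate 1 and -0.70 without C/EBPbeta-2 replicate 2. HOXB1, a gene of the hindbrain segment that gives rise to the facial nerve, differed by -0.16 (interval -0.58 to 0.25). Its other probe set, 243811_at, differed by 0.020 (SE 0.13), at values below the array medians.

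HOXB9 read 5.58, 4.39 and 4.85 with C/EBPbeta-2 and 3.998, 5.01 and 4.79 in control cells. This gene takes part in mammary gland growth together with its group 9 paralogs. The array values crossed between the groups, and the difference of 0.34 (SE 0.38) was 0.02 without C/EBPbeta-2 replicate 1, 0.04 without control replicate 1, 0.54 without control replicate 2 and 0.61 without C/EBPbeta-2 replicate 2. HOXB5 differed by 0.20 (SE 0.37) and HOXB13, a marker of prostate and hindgut epithelium, by -0.23 (SE 0.19). The other probe set of HOXB13, 209844_at, differed by 0.0050 (SE 0.31). The dim genes HOXB6 (-0.08), HOXB7 (0.09) and HOXB8 (-0.02) had estimates near 0.

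HOXD estimates ranged from -0.18 to 0.15 with a median of -0.02, with 3 genes higher and 5 lower. The sign of that median turned with single arrays and settings: it was 0.21 without control replicate 2, 0.02 without C/EBPbeta-2 replicate 3 and 0.14 with array weights, against -0.16 without control replicate 3, -0.15 without control replicate 1 and -0.11 without C/EBPbeta-2 replicate 1. HOXD8 read 3.39, 3.52 and 3.44 with C/EBPbeta-2 and 3.30, 3.28 and 3.32 in control cells. The control arrays lay within 0.033 of each other, the groups did not overlap, and all 6 values were below the array medians. The log2 difference was 0.15 (SE 0.15, limma adjusted p = 1.00). HOXD12, a limb gene, read 2.90, 2.74 and 2.82 against 2.87, 3.21 and 2.91, a difference of -0.18 (SE 0.17). HOXD1 differed by -0.06 (SE 0.21), with 4.40, 4.21 and 4.17 against 4.14, 4.68 and 4.11.

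HOXD9, whose probe set was the brightest of its cluster, read 5.22, 5.05 and 4.68 with C/EBPbeta-2 and 4.80, 5.55 and 4.56 in control cells. Its groups overlapped widely, and its difference was 0.01 (95% interval -0.69 to 0.72). HOXD13, a gene of digit and urogenital patterning, read 4.90, 4.49 and 4.68 against 4.31, 5.24 and 4.51, and its interval ran from -0.65 to 0.65. HOXD4 (-0.04), HOXD10 (-0.04) and HOXD11 (0.0012) had estimates near 0. The 3 probe sets annotated to HOXD3 and HOXD4 together with LOC401021 had means of 2.64 to 3.05 and differences of -0.06 to 0.13.

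The spread between arrays of 1 group (pooled SD) was larger than the difference between the groups for 19 of all 28 HOX genes. These were 6 of 8 HOXD genes, 6 of 9 HOXC genes, 6 of 10 HOXB genes and HOXA2. The share over all genes was not counted. For HOXD1, HOXD9, HOXD10, HOXD11, HOXD12 and HOXD13, C/EBPbeta-2 replicate 1 was the highest of its group and control replicate 2 the highest of its own, which is 6 of 8 HOXD genes, 4 of 10 HOXB genes (HOXB4, HOXB5, HOXB8 and HOXB9) and 0 of 9 HOXC genes. Over all genes 27.5% had this order, and over the genes with no mean above the array medians 40.2%. The HOXD median on these arrays was 4.04 and 4.52, against 3.60 to 3.89 on the other 4. These same arrays had the brightest 18S ribosomal RNA probe sets, and the part of that in the HOXD values was not tested. HOXB2 and HOXB6 were highest on C/EBPbeta-2 replicate 2 and control replicate 1, the arrays with low spike-in RNA. These were 2 of the 28 HOX genes, where 3646 of all 19775 genes had that order.

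**Figure D4:**
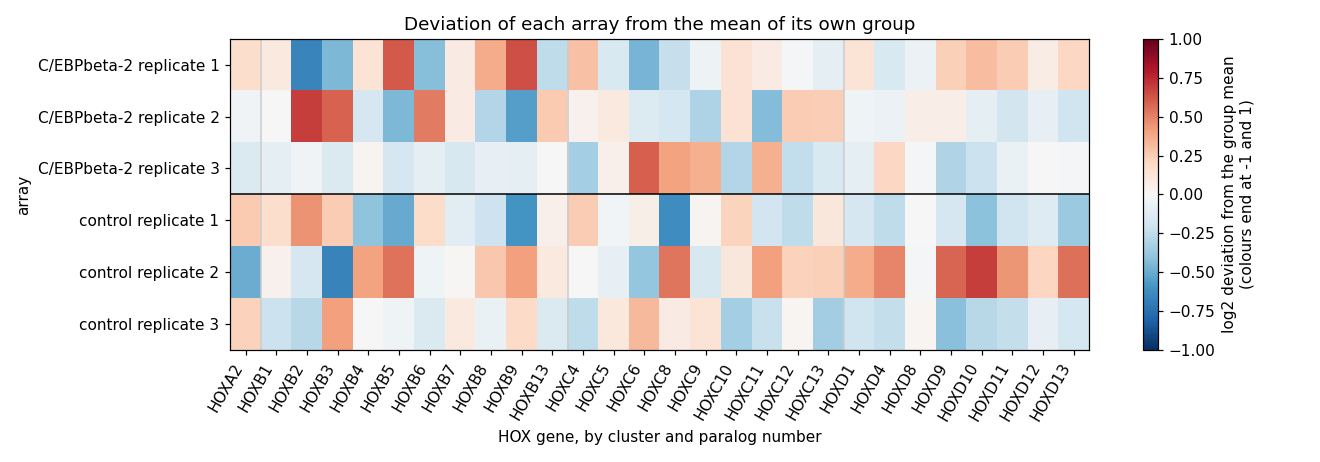
Deviation of each array (vertical axis) from the mean of its own group, in log2 units by colour, for the 28 measured HOX genes (horizontal axis). In the HOXD genes on the right, C/EBPbeta-2 replicate 1 and control replicate 2 are mostly above their group means, and HOXD10 reads 4.68 on control replicate 2 against 3.58 and 3.72 on the other control arrays.

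HOXA2, which patterns the pharyngeal arches, read 5.19, 4.99 and 4.87 with C/EBPbeta-2 and 5.42, 4.65 and 5.38 in control cells. Control replicate 2 lay below and the other control arrays above all C/EBPbeta-2 arrays. The log2 difference was -0.13 (95% interval -0.73 to 0.46), and leaving out 1 array gave -0.38 (without control replicate 2) to -0.00094 (without control replicate 1).

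Of the 28 genes 13 had more than 1 probe set. The estimates of a gene's probe sets lay less than 0.3 apart on the log2 scale for 12 of them, and HOXB3 was the exception with 0.75. Probe sets within that bound could still differ in sign. The lowest and highest estimates lay on either side of 0 for HOXB1 (-0.16, 0.020), HOXB6 (-0.079, 0.13), HOXB7 (-0.066, 0.091) and HOXB8 (-0.017, 0.041). The same held for HOXB13 (-0.23, 0.0050), HOXD1 (-0.055, 0.15), HOXD10 (-0.042, 0.16) and HOXD13 (-0.035, 0.22). For HOXB3, HOXB5, HOXB9, HOXD4 and HOXD9 the signs were the same. By probe set, limma called 0 of 44, an unadjusted p under 0.05 was seen for 1, and the groups did not overlap for 3 (6.82%), where 0.0659% of all 54613 probe sets were called, 3.98% had an unadjusted p under 0.05 and 7.62% had groups that did not overlap.

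Genes that act with or on HOX genes also had no call. Over all genes, 0.273% were called, 5.17% had an unadjusted p under 0.05 and 8.63% had groups that did not overlap. Of 10 measured TALE cofactors and related factors limma called 0; 0 had an unadjusted p under 0.05, and the median log2 difference was -0.01. The largest differences there were those of GMNN, the replication inhibitor geminin that also binds HOX proteins (0.58), TGIF1 (0.36) and the cofactor MEIS1 (-0.35). Of 19 Polycomb subunits, which keep HOX genes silent, limma called 0; 1 had an unadjusted p under 0.05 (5.26%, against 5.17% of all genes), and the median was 0.06. That gene was PHC2, which read 10.46, 9.90 and 10.58 with C/EBPbeta-2 and 9.27, 9.93 and 9.48 in control cells (log2 difference 0.76, limma adjusted p = 0.729), with overlap between the groups. The next were PHC1 (-0.55) and MTF2 (0.48).

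Of 12 trithorax-type activators and demethylases limma called 0; 2 had an unadjusted p under 0.05 (16.7%, against 5.17% of all genes), and the median was 0.09. The histone methyltransferase DOT1L read 6.17, 6.18 and 6.40 with C/EBPbeta-2 and 5.60, 5.66 and 5.91 in control cells (log2 difference 0.53, limma adjusted p = 0.671). WDR5, a core subunit of MLL complexes, read 7.70, 8.05 and 7.91 against 7.23, 7.43 and 7.64 (log2 difference 0.45, limma adjusted p = 0.956). Neither gene's groups overlapped, as for 8.63% of all genes, and the demethylase KDM6B was next (0.38). KMT2A, the founding activator of HOX genes, differed by -0.15. Among 17 genes of the retinoic acid pathway, which induces HOX genes in embryos, and CDX factors, limma called 0; 0 had an unadjusted p under 0.05 (5.17% of all genes), and the median was -0.14. CRABP2, a carrier of retinoic acid, differed by -0.69, the receptor RXRG by -0.43 (without overlap, at values below the array medians) and the enzyme ALDH1A3 by -0.33.

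Of 21 measured genes beside or within the clusters limma called 0; 1 had an unadjusted p under 0.05 (4.76%, against 5.17% of all genes), and the median was -0.01. CALCOCO1, a coactivator gene near the HOXC cluster, read 5.79, 5.37 and 6.01 with C/EBPbeta-2 and 6.61, 6.27 and 6.09 in control cells (log2 difference -0.60, limma adjusted p = 0.885). It was lower with C/EBPbeta-2 without overlap, as was HIBADH, a gene on the HOXA side (-0.60), while 4.01% of all genes were lower without overlap. LNPK, near the HOXD cluster, differed by 0.41.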

How the data were processed

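The authors deposited 1 intensity per probe set and array on a linear scale, and the submitters' processing notes name RMA with no version. The way from RMA's usual log2 scale to this one is not stated in the labels. Per the labels' protocols, RNA was primed with oligo-dT and labelled with biotin. The log2 of each intensity was computed here, without a pseudocount or another normalization. Of 54675 probe sets, 62 manufacturer controls were set aside; of the rest 41091 had 1 gene symbol, 1801 several and 11721 none. By gene ID 41037 of the 41091 matched the gene reference, and 0 symbols changed. Where a gene had several probe sets, the brightest by its mean over 6 arrays stood for it. C/EBPbeta-2 minus control was fitted with limma 3.58.1 in R 4.3.3 (lmFit, eBayes, no covariate, two-sided) over 19775 genes, and over all probe sets, with Benjamini-Hochberg adjustment; a call is an adjusted p under 0.05. SE and 95% intervals are limma's, SD is over 3 arrays, and precision is limited by the number of arrays. The low level of spike-in RNA means a mean log2 under 6 over 15 poly-A control probe sets.

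Alternatives left out each array, added a replicate block or a spike-in term, and changed the normalization, the filter on dim probe sets, the prior variance, the array weights, the probe set per gene and the threshold; pooling the variance over all probe sets was added after seeing the data and gave 52 called genes. The genes, lists and alternatives were chosen with earlier results of these data known. Every HOX gene is named. Values by array are given for HOX genes with an unadjusted p under 0.05, the 3 largest differences per cluster and the brightest gene of each, and up to 3 genes are named of each other list; HOXB9, HOXD13, HOXD10, PHC2, DOT1L, WDR5, CALCOCO1, KMT2A, the cell type markers named and the long non-coding RNAs were added after their values were seen. Python 3.11.15 with pandas 2.3.3, numpy 2.4.6 and matplotlib 3.10.9 read the values and drew the plots.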

Additional observations from a re-analysis of the deposited data

How the results depend on the processing

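Under 16 alternatives to the fit and a threshold of 0.10, limma called 0 HOX genes, and HOX probe sets gave 0 calls wherever probe sets were fitted. The lowest adjusted p of any HOX gene was 0.118, for HOXC13 with array weights (its range was 0.118 to 1.00), and its unadjusted p stayed under 0.05 in each of the 15 alternatives that measured it. HOXC13 could not be read without _x_at and _s_at probe sets. HOXB3 had adjusted p-values of 0.137 to 1.00 over its 16 alternatives. The number of all genes called moved from 54 to 214 with array weights and 94 at the threshold of 0.10, and to 8 (without control replicate 3) to 75 (without control replicate 2) when 1 array was left out, where fewer arrays also enter the fit. With the replicate number as a block 0 genes were called (763 at an unadjusted p under 0.05), and the deviations of same-numbered arrays from their group means correlated at -0.45, -0.55 and 0.42, so the numbers were not taken as pairs. The HOXB median of -0.12 was -0.23 when dim probe sets were left out, which removed 3 of its 10 genes, and -0.23 to -0.075 when 1 array was left out; it was -0.030 with all probe sets of a gene averaged. When 1 array was left out the HOXC median of 0.07 was 0.022 (without C/EBPbeta-2 replicate 2) to 0.16 (without C/EBPbeta-2 replicate 1) and the HOXD median of -0.02 was -0.16 to 0.21; with array weights the latter was 0.14.

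Of 28 genes 14 kept the sign of their difference under every alternative that measured them, HOXA2, HOXB1, HOXB2, HOXB3, HOXB4, HOXB9, HOXB13, HOXC5, HOXC8, HOXC9, HOXC11, HOXC13, HOXD8 and HOXD12. The other 14 had estimates of -0.08 to 0.20 and changed sign in 51 of 433 values over the 28 genes, with no call on either side. With array weights the sign turned for HOXB7 (-0.0054), HOXB8 (0.016), HOXC6 (0.0073), HOXD1 (0.046), HOXD4 (0.23), HOXD10 (0.094) and HOXD13 (0.16). Averaging all probe sets of a gene turned it for HOXB6 (0.025), HOXB8 (0.012), HOXD1 (0.0497), HOXD10 (0.058) and HOXD13 (0.061), and without _x_at and _s_at probe sets for HOXB6 (0.13) and HOXD1 (0.15). Centring each array on its median turned HOXB8 (0.0063) and HOXD13 (0.024), and quantile normalization HOXC4 (0.0013) and HOXD13 (0.0039). Leaving out 1 array gave HOXB5 -0.11 to 0.47, HOXB6 -0.34 to 0.13, HOXB8 -0.20 to 0.13, HOXC4 -0.18 to 0.14, HOXC6 -0.36 to 0.17, HOXC10 -0.12 to 0.19, HOXC12 -0.17 to 0.082, HOXD1 -0.16 to 0.13, HOXD4 -0.17 to 0.20, HOXD9 -0.20 to 0.30, HOXD10 -0.25 to 0.30, HOXD11 -0.13 to 0.22 and HOXD13 -0.19 to 0.28. The cause of these changes was not tested.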

Other observations

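Long non-coding RNAs transcribed from within the clusters were matched by their own symbols and gene IDs. HOTAIR of the HOXC cluster, which was first described as a partner of Polycomb, had a mean of 3.21 (log2 intensity) and differed by -0.12, and HOTTIP at the end of the HOXA cluster had a mean of 5.72 and differed by 0.21. HOXA-AS2 (0.28), HAGLR of the HOXD cluster (0.23), HOXB-AS1 (0.17), HOXA-AS3 (0.16), HOXA11-AS (0.066), HOXD-AS2 (-0.012) and HOXB-AS3 (-0.018) were the others measured. HOTAIRM1, HOXA10-AS, HOXC-AS1 and HOXC-AS2 were listed but not measured. Of the 9 measured RNAs limma called 0, and none had an unadjusted p under 0.05, where 0.273% and 5.17% of all genes did. The groups overlapped for 8 of them; for HAGLR every C/EBPbeta-2 array was higher, at values below the array medians, and 8.63% of all genes had groups without overlap.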
